A study of Homo sapiens with 10 samples.

Results

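The urea cycle and amino acid breakdown genes described here are 9 genes chosen by name, CPS1, OTC, ASS1, ASL, ARG1, ARG2, GLS2, GLUD1 and TAT, and each was found once among the 32738 genes of the count table. They were measured in HepG2 cells, a human hepatoma line, in 5 control libraries from cells kept in regular growth medium and 5 libraries from cells given 2 µg/ml tunicamycin, both for 17 h. Tunicamycin blocks N-linked glycosylation and is used to cause endoplasmic reticulum (ER) stress. By the series text the 5 replicates are experiments of separate days, each with a control and a tunicamycin library. RNA was sequenced by the QuantSeq 3′ method, in which a transcript gives about one read whatever its length, so that counts of different genes can be set side by side without a length correction.

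The urea cycle turns toxic ammonia into urea, and in the body its complete set of enzymes is a property of liver cells. Ammonia enters in mitochondria, where CPS1 makes carbamoyl phosphate and OTC joins it to ornithine. In the cytosol ASS1 and ASL build arginine, and an arginase splits arginine into urea and ornithine, which returns to the mitochondria. Glutaminase (GLS2 in liver) and glutamate dehydrogenase (GLUD1) release ammonia from glutamine and glutamate, and tyrosine aminotransferase (TAT) opens the breakdown of tyrosine and is a classical target of glucocorticoids. Many hepatoma lines are known to have lost part of this pathway.

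Of the 9 genes, 2 (OTC and ARG1) had 0 counts in all 10 libraries and 7 could be tested. With tunicamycin ARG2, the mitochondrial arginase, rose 2.42-fold. It was the only gene of the set that passed the test. CPS1, ASS1, ASL, GLS2, GLUD1 and TAT did not pass. Of the 12733 genes that entered edgeR's quasi-likelihood test, 34.2% differed at an adjusted p below 0.05 (17.6% higher and 16.6% lower), against 1 of 7 here. The median log2 fold change of the 7 genes was 0.23, and that of all tested genes was -0.00335. In bulk RNA a lower level per cell and a smaller share of cells with the transcript cannot be told apart.

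The total per library was 4242538 to 4888292 counts in control cells and 2234682 to 5029864 in tunicamycin cells, with the lowest totals in tunicamycin replicates 5 (2234682) and 4 (3567316). All 10 listed hepatocyte markers, such as ALB and APOB, had counts in every library and together took 1.88% to 2.37% of control counts and 1.34% to 1.59% of tunicamycin counts. Of these 10 markers, 0 were called higher and 6 lower with tunicamycin, beside 17.6% and 16.6% of all genes. Their median log2 fold change was -0.55, and its part in the values of the 9 genes was not tested. Of 9 markers of other cell types found in the table, 5 had at most 5 counts over all libraries together, among them PTPRC and COL1A2 with 0. The others were CD68 (222 counts over all libraries), ACTA2 (1213), EPCAM (9910) and SPP1 (37814). Of the 4 that were tested, 1 was higher and 1 lower with tunicamycin, beside 17.6% and 16.6% of all genes. The summed level of the 9 markers was 899 to 1013 CPM (counts scaled to the library total) in control and 1205 to 1427 in tunicamycin libraries. It was led by SPP1, and its part in the results was not tested. Values below are normalized counts, that is counts scaled by the library size after TMM correction to the mean library, with SD over n = 5 libraries.

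The promoters of ARG2, the gene that rose, and of ARG1 and OTC, the genes without counts, are shown for comparison. Each runs from 250 bases before to 50 bases after a RefSeq transcription start, on the plus strand of GRCh38.p14 (chr14:67619670-67619969, chr6:131572976-131573275 and chrX:38352354-38352653). Capitals mark matches to the cAMP response element sequence TGACGTCA in ARG2 and to the TATA box sequence TATAAA in ARG1 and OTC. The TATAAA match lies from -29 to -24 in ARG1 but from -192 to -187 in OTC.
ARG2: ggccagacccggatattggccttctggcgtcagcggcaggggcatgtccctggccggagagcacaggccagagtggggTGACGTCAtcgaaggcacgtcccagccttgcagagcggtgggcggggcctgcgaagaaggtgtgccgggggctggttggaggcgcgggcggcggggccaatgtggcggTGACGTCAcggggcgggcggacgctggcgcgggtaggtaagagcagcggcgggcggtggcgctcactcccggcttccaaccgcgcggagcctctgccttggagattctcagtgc
ARG1: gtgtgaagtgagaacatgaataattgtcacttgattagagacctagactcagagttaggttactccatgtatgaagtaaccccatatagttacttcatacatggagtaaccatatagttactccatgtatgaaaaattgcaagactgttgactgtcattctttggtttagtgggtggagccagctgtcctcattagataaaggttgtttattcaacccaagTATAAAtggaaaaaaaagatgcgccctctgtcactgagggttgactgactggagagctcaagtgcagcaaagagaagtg
OTC: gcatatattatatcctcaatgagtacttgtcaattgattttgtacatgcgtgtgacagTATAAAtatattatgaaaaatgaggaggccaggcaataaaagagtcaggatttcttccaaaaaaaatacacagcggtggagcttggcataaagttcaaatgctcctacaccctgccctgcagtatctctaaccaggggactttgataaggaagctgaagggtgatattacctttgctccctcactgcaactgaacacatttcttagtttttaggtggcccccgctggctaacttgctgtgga

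All motifs were searched on both strands. The ARG2 window held 2 copies of TGACGTCA, a palindrome known as a binding sequence of CREB and ATF factors, from -172 to -165 and from -64 to -57 relative to the start. Among all 35116 promoters of the same length, 1.85% held at least 1 copy and 21 promoters (0.0598%) held at least 2. The partial element TGACG, held by 24.6% of all promoters, matched 5 times in ARG2, 4 of them inside these palindromes, and 1 time in ASL. The other matches in ARG2 were 2 CCAAT boxes. None of the other 10 promoter windows found for the set held TGACGTCA. Promoters were found for 8 of the 9 genes, with 3 starts for CPS1 and 2 for ASS1, and the missing entry is TAT. The AP-1 sequences TGACTCA and TGAGTCA, the C/EBP-ATF composite TGATGNAA and the C/EBP sequence TTNNGCAA matched in 0 of the 11 windows. They were found in 4.95%, 3.62% and 10.5% of all promoters. TATAAA lay from -29 to -24 in ARG1 and from -192 to -187 in OTC, and 11.5% of all promoters held it. CCAAT matched 2 times in ASL and 1 time at a CPS1 start, and CCACG, the right part of the ER stress element, 1 time each in ASL and at an ASS1 start, against 34.6% and 38.1% of all promoters. The windows of ARG1 and OTC had a GC content of 40.0% and 41.7%, that of ARG2 71.0%. A match describes letters in the window and is not evidence that a factor binds there.

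**Figure D1:**
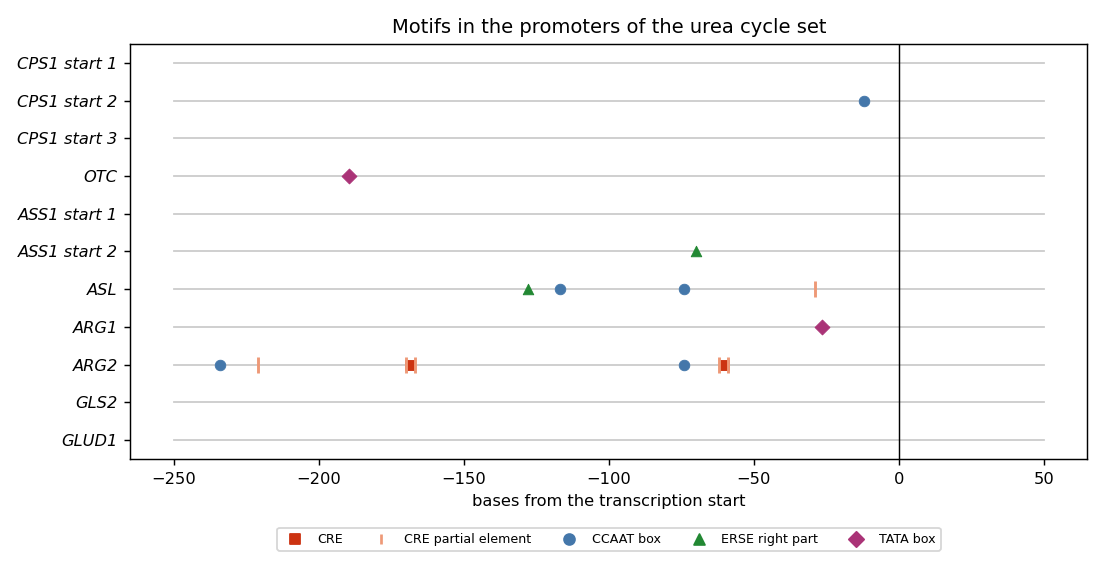
Positions of the motifs searched in 11 promoter windows of 8 genes, in bases from the transcription start (x axis), 1 line per window; AP-1, composite and C/EBP sequences had no match. Both TGACGTCA palindromes (squares) lie in the ARG2 window, and each overlaps 2 partial elements.

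ARG2 (ENSG00000081181, chromosome 14 of GRCh38 from 67619920 to 67651708, plus strand, 8 exons) had 24.1, 25.0, 21.9, 32.3 and 30.5 normalized counts in the control libraries of days 1 to 5 and 54.1, 72.4, 66.1, 68.7 and 62.6 after tunicamycin on the same days. Every tunicamycin library lay above every control library, as for 11.7% of all tested genes, while groups did not overlap in either direction for 23.5%. The mean rose from 26.7 ± 4.42 to 64.8 ± 7.0 (SD, n = 5 each), with 1.27 as the log2 fold change (SE 0.17, edgeR quasi-likelihood adjusted p = 1.44e-05), with a 95% interval of 1.88-fold to 3.11-fold. The log2 ratios within the 5 days were 1.15, 1.52, 1.58, 1.09 and 1.04, so ARG2 was higher on 5 of 5 days. Among all tested genes 96.6% had a lower log2 fold change. The call held under all 17 alternatives, with log2 fold changes from 1.19 to 1.4. Exons of VTI1B on the opposite strand overlap those of ARG2, and the strand setting of the counting is not given. VTI1B itself had 218 ± 15.6 and 231 ± 11.0 normalized counts (log2 fold change 0.08, edgeR quasi-likelihood adjusted p = 0.531). As a share of all counts on the 9 genes, ARG2 took 1.83% to 2.64% in control and 4.94% to 7.34% in tunicamycin libraries.

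ARG1 (ENSG00000118520, chromosome 6, 131470832 to 131584332, plus strand), the cytosolic arginase that serves the urea cycle in liver, had 0 counts in each library. So had OTC (ENSG00000036473, chromosome X, 38352586 to 38421446, plus strand). In a single library a count of 0 allows up to 3 counts, which is 0.596 to 1.34 CPM at these depths. Both genes were also at 0 over the 4.34e+07 counts of all 10 libraries together. The limit for the whole series is therefore lower and was not computed. In the GENCODE annotation exons of no other gene overlap those of ARG1 or OTC. Of all genes listed, 46.8% had 0 counts in every library. ARG2 was thus the only arginase with counts, and the planned ratios of ARG2 to ARG1 and of CPS1 to OTC could not be computed.

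**Figure D2:**
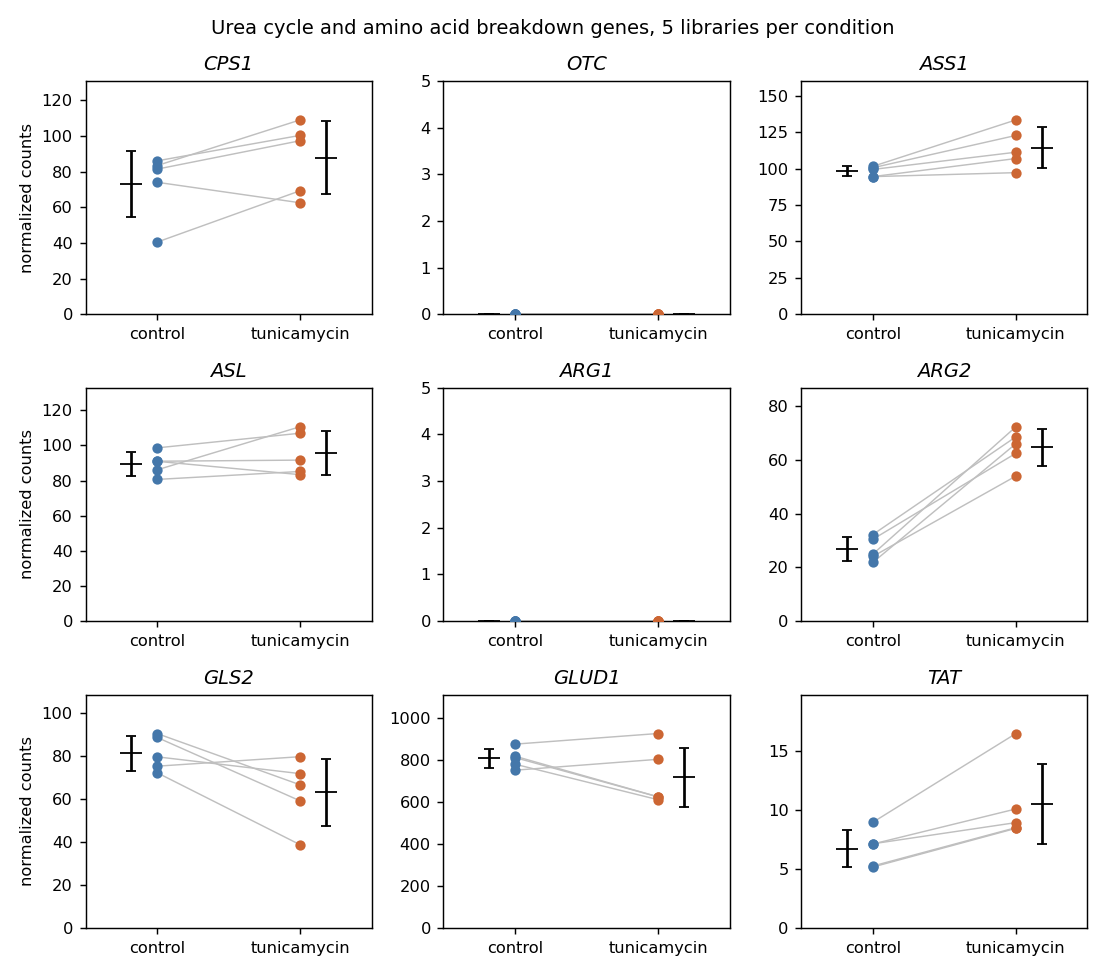
Normalized counts (y axis, from 0) of the 9 genes in control (blue) and tunicamycin (orange) libraries, 5 per condition, with grey lines joining libraries of the same day and bars for mean ± SD. ARG2 is the only gene whose 5 tunicamycin values all lie above the control values, and OTC and ARG1 are at 0 throughout.

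CPS1 (ENSG00000021826, chromosome 2, 210477682 to 210679107, plus strand, 38 exons), the enzyme of ammonia entry, had 40.5, 74.0, 81.4, 86.0 and 83.3 normalized counts in control replicates 1 to 5 and 69.3, 62.5, 97.3, 100.3 and 109 with tunicamycin. The groups overlapped, and control replicate 1 stood below the other 9 libraries. The means were 73.0 ± 18.8 and 87.7 ± 20.5 (SD, n = 5 each), with 0.24 as the log2 fold change (SE 0.20, edgeR quasi-likelihood adjusted p = 0.378), with a 95% interval from 0.884-fold to 1.58-fold. Without control replicate 1 the log2 fold change was 0.08. CPS1 was higher on 4 of 5 days.

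ASS1 (ENSG00000130707, chromosome 9, 130444961 to 130501274, plus strand), which joins citrulline and aspartate, had between 94.5 and 102 normalized counts in control libraries and 133, 97.2, 123, 111 and 107 in tunicamycin replicates 1 to 5. It was higher on 5 of 5 days, by log2 ratios of 0.04 to 0.39, but tunicamycin replicate 2 lay inside the control range. The means of 98.1 ± 3.38 and 114 ± 14.1 (SD, n = 5 each) gave a log2 fold change of 0.23 (SE 0.12, edgeR quasi-likelihood adjusted p = 0.159), with a 95% interval from 0.982-fold to 1.4-fold. The next enzyme, ASL (ENSG00000126522, chromosome 7, 66075800 to 66094697, plus strand), had 86.1, 91.0, 91.0, 80.6 and 98.6 normalized counts in control and 111, 83.4, 91.6, 85.2 and 107 in tunicamycin libraries. In the GENCODE annotation exons of ENSG00000249319 overlap those of ASL on the same strand, and the part of that overlap was not tested. The ranges of ASL overlapped over most of their width. Its log2 fold change was 0.09 (SE 0.13, edgeR quasi-likelihood adjusted p = 0.620), with a 95% interval from 0.883-fold to 1.29-fold. For ASS1 and ASL the intervals thus do not reach 1.5-fold in either direction, while that of CPS1 does.

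GLS2 (ENSG00000135423, chromosome 12, 56470944 to 56488414, minus strand), the liver-type glutaminase, had 88.7, 72.2, 79.6, 75.3 and 90.5 normalized counts in control replicates 1 to 5 and 59.1, 38.7, 71.8, 79.7 and 66.6 with tunicamycin. It was lower on 4 of 5 days, and the groups overlapped through tunicamycin replicate 4. The means were 81.2 ± 8.06 and 63.2 ± 15.6 (SD, n = 5 each), with a log2 fold change of -0.38 (SE 0.17, edgeR quasi-likelihood adjusted p = 0.0965) and a 95% interval from 0.601-fold to 0.987-fold before adjustment. With library size as the only scaling, which moves the median of all genes to -0.08, GLS2 was called lower (-0.46, adjusted p = 0.0365). Without tunicamycin replicate 2, its lowest library, the log2 fold change was -0.23 (adjusted p = 0.284). Exons of SPRYD4 on the opposite strand overlap those of GLS2, and SPRYD4 had a log2 fold change of 0.03. In the GENCODE annotation exons of ENSG00000285528 overlap those of GLS2 on the same strand. The part of that overlap in the counts was not tested.

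GLUD1 (ENSG00000148672, chromosome 10, 87050202 to 87094843, minus strand), glutamate dehydrogenase, was the most abundant of the 9 genes. Its normalized counts were 780, 811, 818, 875 and 751 in control replicates 1 to 5 and 611, 624, 624, 926 and 803 with tunicamycin. Replicates 1 to 3 of tunicamycin lay below every control library, whereas replicate 4 lay above and replicate 5 inside the control range. The means of 807 ± 46.6 and 718 ± 141 (SD, n = 5 each) gave a log2 fold change of -0.18 (SE 0.11, edgeR quasi-likelihood adjusted p = 0.233), with a 95% interval from 0.755-fold to 1.04-fold. Without tunicamycin replicate 4 it was called lower (-0.28, adjusted p = 0.0330), as it was with library size as the only scaling (-0.27, adjusted p = 0.0486). Tunicamycin replicates 4 and 5 had the fewest counts of all libraries, and mitochondrial transcripts took 28.8% and 24.6% of their counts against 18.3% to 21.5% in replicates 1 to 3 and 22.7% to 25.2% in control libraries. After thinning all libraries to equal depth the log2 fold change of GLUD1 was -0.17 (adjusted p = 0.320). The part of mitochondrial transcripts in these values was not tested. SHLD2, whose exons overlap on the opposite strand, had a log2 fold change of 0.10. GLUD2, a close copy of GLUD1 on another chromosome, had 12 counts over all libraries together.

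TAT (ENSG00000198650, chromosome 16, 71565660 to 71577092, minus strand) was at the low end of detection, at 5.16, 7.13, 5.25, 8.96 and 7.12 normalized counts in control and 8.45, 8.93, 8.5, 16.5 and 10.1 in tunicamycin libraries. It was higher on 5 of 5 days, by log2 ratios of 0.31 to 0.87, with overlap between the groups. The log2 fold change was 0.60 (SE 0.36, edgeR quasi-likelihood adjusted p = 0.213), and the 95% interval, from 0.897-fold to 2.57-fold, is the widest of the 7 genes. Tunicamycin replicate 4 stood above the rest, and without it the log2 fold change was 0.40. TAT-AS1, which overlaps TAT on the opposite strand, averaged 0.883 and 2.31 normalized counts.

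In control cells the order by mean level was GLUD1, ASS1 (98.1), ASL (89.5), GLS2 (81.2), CPS1 (73.0), ARG2 (26.7) and TAT (6.72). The ranges of neighbours from ASS1 to CPS1 overlapped, while GLUD1 stood above and ARG2 and TAT below without overlap. GLUD1 exceeded 94.3% of all tested genes in level, ASS1 55.7%, CPS1 48.6%, ARG2 28.9% and TAT 11.8%. With tunicamycin ARG2 (64.8) and GLS2 (63.2) had overlapping ranges, which they did not have in control cells. GLUD1 took 65.0% to 69.6% of the counts of the 9 genes in control and 57.7% to 66.7% in tunicamycin libraries.

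**Figure D3:**
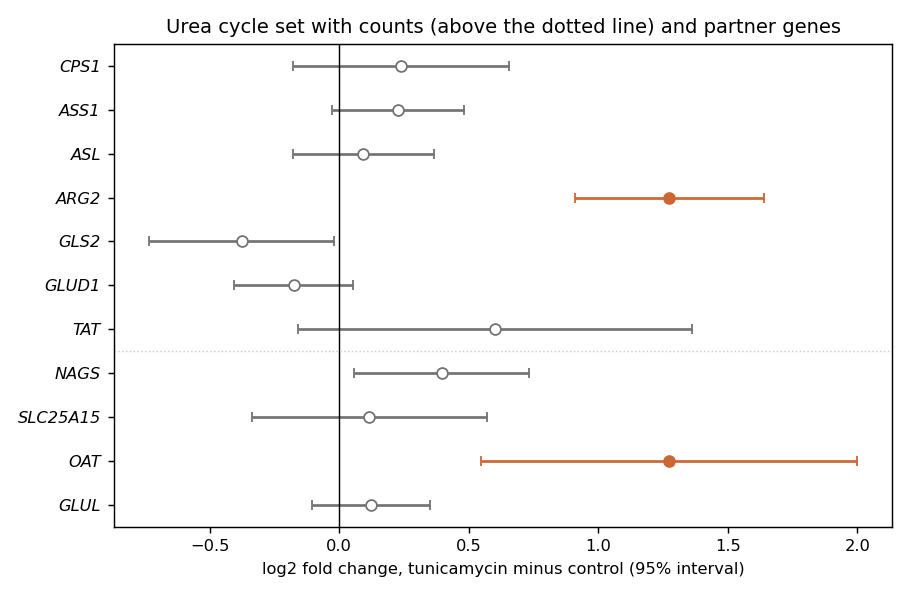
Log2 fold changes (x axis, points) with 95% intervals (bars) from edgeR's fit for the 7 genes of the set with counts and, below the dotted line, 4 partner genes; filled orange points passed an adjusted p under 0.05. ARG2 and OAT lie, filled, to the right of 0, and of the open points the intervals of GLS2 and NAGS exclude 0 before adjustment.

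Whether a pair of enzymes changed to an unequal degree was tested on the ratio of their counts within each library, for 4 computable ratios, of which 3 are given here. The log2 ratio of GLUL, which fixes ammonia into glutamine, to GLUD1 was -1.15, -1.55, -1.48, -1.63 and -1.50 in control and -1.15, -1.07, -0.997, -1.23 and -1.29 in tunicamycin libraries. It was higher on 5 of 5 days with overlap between the groups, a difference of 0.32 (exact permutation test, two-sided p = 0.0238, adjusted p = 0.0476 over 4 ratios). Adjusted over the 3 ratios given here it missed the threshold (exact permutation test, adjusted p = 0.0714). The call was also lost with each of the 10 libraries left out in turn, with differences of 0.27 to 0.39. With 1 library fewer the exact test has fewer arrangements and a larger smallest p. Without control replicate 1 the groups did not overlap, yet the call was lost (difference 0.39, exact permutation test, adjusted p = 0.0635). These losses therefore cannot tell a weaker difference from a coarser test. The exact sign-flip test within replicate pairs (adjusted p = 0.0833) cannot pass with 5 pairs, since its smallest p is 0.0625 before adjustment. ASL to ASS1 differed by -0.12 (exact permutation test, adjusted p = 0.317) and was lower on 5 of 5 days. Its sign-flip test within pairs gave the same adjusted p = 0.0833, and it could not pass either. CPS1 to ASS1 differed by 0.07 (exact permutation test, adjusted p = 0.810).

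**Figure D4:**
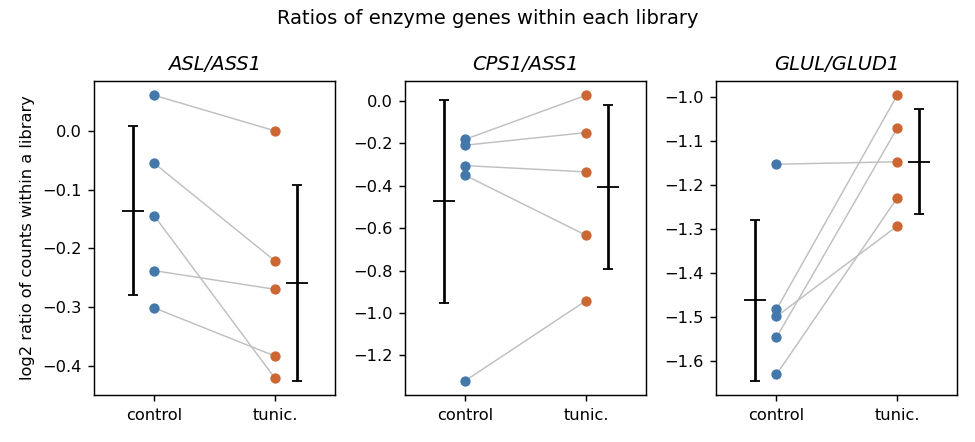
Log2 ratio of the counts of a pair of genes within each library (y axis, a separate scale in each panel) for control and tunicamycin libraries, 5 each, with lines joining libraries of the same day and bars for mean ± SD. GLUL/GLUD1 is higher with tunicamycin on all 5 days, by 0.32 on average.

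Genes that feed or connect the cycle were measured alongside. NAGS makes N-acetylglutamate, which CPS1 needs to be active. It had 81.8, 66.9, 102, 75.3 and 105.7 normalized counts in control and 127, 117, 96.4, 140.1 and 82.7 in tunicamycin libraries, with overlap. Its log2 fold change of 0.40 (SE 0.16) missed the threshold (edgeR quasi-likelihood adjusted p = 0.0656) but passed it in 4 of 17 alternatives (after thinning, and without control replicate 3, control replicate 5 or tunicamycin replicate 5, with 0.47 to 0.60). SLC25A15, the mitochondrial ornithine carrier, had a log2 fold change of 0.12 (SE 0.22, adjusted p = 0.713). SLC25A13, the aspartate and glutamate carrier of liver, had one of 0.03 (SE 0.10). Of the 9 tested genes for supply and transport, SLC25A22, a mitochondrial glutamate carrier, was the only one called, with 32.2 ± 5.85 normalized counts in control and 59.7 ± 12.5 in tunicamycin libraries.

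Ornithine, a product of arginase, feeds proline, glutamate and polyamine synthesis. Of 16 tested genes of ornithine, arginine and polyamine routes, 6 were higher and 4 lower, against 17.6% and 16.6% of all genes. OAT, which turns ornithine into glutamate semialdehyde, had 10.3, 42.8, 60.4, 79.7 and 75.2 normalized counts in control and 53.2, 120.1, 143, 162 and 184 in tunicamycin replicates 1 to 5. Replicate 1 was lowest in both conditions and the OAT groups overlapped there, while within days OAT rose by 1.02 to 2.32 on the log2 scale (log2 fold change 1.27, SE 0.35, edgeR quasi-likelihood adjusted p = 0.00769). ODC1, which makes putrescine from ornithine, rose from 592 ± 153 to 1401 ± 150 and SAT1, which acetylates polyamines for export or breakdown, from 704 ± 71.1 to 1891 ± 78.8 normalized counts (SD, n = 5 each), both without overlap. GAMT, the last enzyme of creatine synthesis, and DDAH1, which degrades methylated arginine, were among the lower genes, with log2 fold changes of -0.85 and -0.59.

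Of 9 tested genes of glutamine, glutamate, alanine and aspartate handling, 2 were higher and 3 lower, against 17.6% and 16.6% of all genes. GOT1, the cytosolic aspartate aminotransferase, rose from 417 ± 36.1 to 863 ± 55.9 (SD, n = 5 each), or by 1.05 (SE 0.09) in log2 units, while its mitochondrial counterpart GOT2 had 501 ± 40.4 and 502 ± 98.6. GLUL had 293 ± 33.2 and 321 ± 45.1 normalized counts and was not called. ABAT (-0.90), ASRGL1 (-0.71) and ALDH5A1 (-0.50) were the lower genes, by log2 fold change.

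In the breakdown routes of single amino acids the calls went both ways, and each count below stands against the same 17.6% and 16.6% of all genes. Of 7 tested genes for phenylalanine and tyrosine, the route that TAT belongs to, 1 was lower (HGD, log2 fold change -0.49) and 0 higher. For tryptophan 1 of 6 was higher and 1 lower. KYNU, which splits kynurenines, rose from 115 ± 16.3 to 381 ± 79.0 normalized counts, and HAAO was the lower gene (-0.48). TDO2, which opens this route in liver, had 0 counts, as had IDO1, IDO2, KMO and ACMSD.

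Of 21 tested genes for branched-chain amino acids, 4 were higher and 2 lower. BCAT1, the cytosolic branched-chain aminotransferase, rose from 140 ± 31.1 to 457 ± 18.8 (SD, n = 5 each). HIBADH, of valine breakdown, had the largest log2 fold change of these lists, 3.46 (SE 0.67), but was uneven, with 8.13 to 12.1 normalized counts in control and 12.7, 53.6, 27.4, 288 and 212 in tunicamycin replicates 1 to 5. Its highest values were in the libraries with the fewest counts, replicates 4 and 5, and without replicate 4 the log2 fold change was 2.75. At equal depth after thinning it was 3.31 (adjusted p = 0.000589). Thinning evens the depth only, and the part of other differences between these libraries was not tested. BCKDHA was listed at 0 in every library, and exons of another gene on the same strand overlap its own.

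For serine, glycine and threonine 1 of 9 tested genes was higher (DLD, log2 fold change 0.47) and 3 were lower. AGXT, alanine-glyoxylate aminotransferase, had 65.4, 77.6, 70.9, 69.9 and 56.9 normalized counts in control and 50.7, 30.8, 18.9, 31.6 and 38.3 in tunicamycin libraries, without overlap (log2 fold change -1.0, SE 0.21). For methionine and cysteine 4 of 16 were higher and 4 lower. CTH, which releases cysteine from cystathionine, rose from 25.5 ± 6.27 to 89.8 ± 10.8 normalized counts, while MAT1A, the liver S-adenosylmethionine synthetase, fell from 496 ± 33.5 to 319 ± 18.5 (SD, n = 5 each). For histidine 1 of 2 tested genes was lower (FTCD, -0.79), for lysine 2 of 5 (AASS, -0.63, and PIPOX, -0.33) and for proline and hydroxyproline 2 of 4 (ALDH4A1, -0.58, and PRODH2, -0.40), with 0 higher in these 3 lists.

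Over all 11 lists, 19 of 104 tested genes were higher (18.3%) and 23 lower (22.1%), beside 17.6% and 16.6% of all genes, and their median log2 fold change was 0.02.

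**Figure D5:**
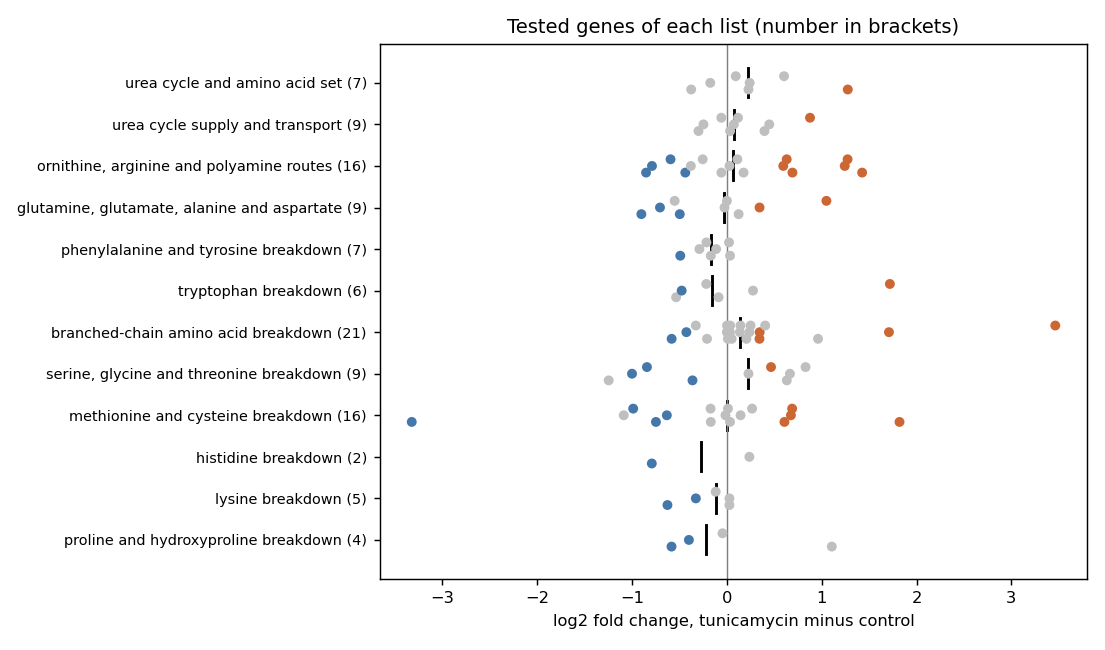
Log2 fold changes (x axis) of the tested genes of the 9-gene set and of 11 lists (1 line each, number tested in brackets), with orange for genes called higher, blue for genes called lower, grey for the rest and a black bar at each list's median. List medians lie between -0.28 and 0.23, while single genes reach from -3.32 to 3.46.

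Of 7 tested transcription factors and coactivators that are known to act on urea cycle genes in liver, 1 was higher and 3 lower, where 17.6% and 16.6% of all genes were. CEBPB rose from 145 ± 11.0 to 419 ± 66.5 normalized counts (log2 fold change 1.53, SE 0.12, edgeR quasi-likelihood adjusted p = 9.46e-09). CEBPA, its relative that is typical of resting hepatocytes, fell from 548 ± 19.0 to 442 ± 40.1 (-0.31, adjusted p = 0.00868), a call lost after thinning every library to the depth of the shallowest (-0.28, adjusted p = 0.0543). HNF4A, a master regulator of hepatocyte genes, had 433 ± 50.3 and 518 ± 59.9 normalized counts (log2 fold change 0.26, adjusted p = 0.0586), and passed the threshold with the replicate block (adjusted p = 0.0165) and without control replicate 4 or 5 or tunicamycin replicate 1 or 2. NR3C1, the glucocorticoid receptor, was lower (-0.42). Any relation of these factors to the values of the 9 enzymes was not tested.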

How the data were processed

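QuantSeq 3′ libraries of 5 control and 5 tunicamycin HepG2 cultures were analysed. The authors processed the reads with the nf-core RNA-Seq pipeline at its default settings on hg19 with Ensembl transcripts and deposited raw counts per gene. Which aligner, counting program and strand setting these defaults select is not given in the sources used here. From the counts, genes were filtered with filterByExpr (minimum count 2, minimum total 10), scaled by TMM and tested with edgeR 4.0.16 (R 4.3.3, quasi-likelihood test, condition as the only term, Benjamini-Hochberg adjustment over 12733 genes). The standard error is the absolute log2 fold change over the square root of F, and within-day log2 ratios used a pseudocount of 0.5. The fit was tested on simulated data. The series text places the replicates on separate days, so libraries were paired by replicate number. The correlations of the paired deviations over 10736 genes were 0.317, 0.0171, 0.0391, 0.122 and 0.0864. Control replicates 1 and 4 correlated best with the tunicamycin library of their own number. Control replicates 2, 3 and 5 did not, so the counts themselves show the pairing only in part.

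Ratios of 2 genes used counts plus 0.5 within each library and an exact permutation test over libraries. Alternatives were DESeq2 1.42.0, DESeq2 size factors, library size only, no filter, default filter (10 and 15), the replicate block, thinning to 2234682 counts and leaving out each library. The genes and lists were chosen with earlier results of these data known. Named by rule were the 9 genes, NAGS, GLUL, OAT, SLC25A15, CEBPA, CEBPB, HNF4A and, per list, up to 4 called genes with an absolute log2 fold change of at least 1, at least 20 normalized counts and 1 direction on 5 days. Other list genes were named after their values were seen. Positions come from GENCODE on GRCh38 by Ensembl identifier and promoters from RefSeq. No hg19 coordinate is given. Some genes of the lists enter the counts and are not reported here by name. Depth of 2234682 to 5029864 counts limits low genes, and the limit set by a count of 0 covers counting error only.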

Additional observations from a re-analysis of the deposited data

Results flagged for a closer look

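In 3 of 50 sets of 5 values the gap between an extreme library and its nearest neighbour was a large share of the whole range (Dixon test at the 95% level), where chance gives about 2.5 such sets. CPS1 had 40.5 normalized counts in control replicate 1, against 74.0 to 86.0 in the others. KYNU had 86.9 in the same library, against 117 to 129. TAT had 16.5 in tunicamycin replicate 4, against 8.45 to 10.1.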

How the results depend on the processing

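ARG2 was called higher in all 17 alternatives, the replicate block included (log2 fold change 1.29, adjusted p = 6.15e-06). The number of called genes among the 9 was 1, also with the replicate block, except 3 with library size as the only scaling (GLS2 and GLUD1 lower as well). With each library left out in turn it was 1 to 2, with GLUD1 added without tunicamycin replicate 4. The 104 tested list genes gave 33 to 45 calls over the alternatives against 42, with 45 under the replicate block, and 34 to 40 with a library left out. With library size alone 16 were higher and 26 lower.

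The ratio of GLUL to GLUD1 (0.32) missed the threshold after thinning (0.26, exact test, adjusted p = 0.0794). It also missed it with any library left out (0.27 to 0.39), where the exact test is coarser. The paired sign-flip test of the replicate block (0.32, exact test, adjusted p = 0.0833) cannot go below 0.0625 with 5 pairs and shows only that the direction was kept. Of the 22 genes followed through the alternatives, the block changed the call of HNF4A and of no other. With library size alone, 40.8% of all called genes were higher against 51.4%, and thinned libraries gave 3201 calls among 12200 genes, against 4353 among 12733. Genes with few counts, such as TAT, are limited by depth.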

Other observations

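OAT and AFP, picked after their values were seen, were lowest in replicate 1 of both conditions. OAT had 10.3 normalized counts in control replicate 1, against 42.8 to 79.7 in the other control libraries, and 53.2 with tunicamycin, against 120.1 to 184. AFP, a marker of fetal liver and hepatoma, had 4138 in control replicate 1, against 8296 to 16911, and 7554 with tunicamycin, against 10413 to 11099. This was not shared by all liver genes. Of the 10 hepatocyte markers, AFP included, 5 were lowest in replicate 1 of both conditions, and 1 (APOA1) was highest there, with 9929 against 8472 to 8993 in control and 5276 against 4422 to 5036 in tunicamycin libraries.

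BHMT, a liver enzyme that methylates homocysteine with betaine, fell with tunicamycin. Its normalized counts were 6.89, 24.1, 14, 10.8 and 17.3 in control and 0.845, 1.98, 1.89, 0 and 2.02 in tunicamycin libraries (log2 fold change -3.32, SE 0.55, edgeR quasi-likelihood adjusted p = 0.000109). It was lower on 5 of 5 days and was named after its values were seen. Exons of DMGDH on the opposite strand overlap those of BHMT.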
